A study of Mus musculus with 6 samples.

Results

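Short H3K9me3 regions were defined by joining the overlapping or touching islands of 4 H3K9me3 libraries and keeping regions of at most 3000 bp on chromosomes 1 to 19. This gave 434 short regions out of 5819 regions on these 19 chromosomes, against 5385 longer ones, and out of 5840 regions on all chromosomes. The regions were chosen by their measured islands, so their length, score and recurrence over the libraries are given as descriptions, with no test. Positions are in mm9 and count from 1. No mm9 gene annotation was used here, so no gene is named at any region.

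The libraries came from regenerated olfactory epithelium of mice of mixed background in which a Cre transgene under the cytokeratin 5 (K5) promoter deletes Lmnb1, the gene for lamin B1, in horizontal basal cells, the resident stem cells of this tissue. Mutant mice carried Lmnb1 fl/fl and their littermate controls Lmnb1 fl/+, so that sorted cells were Lmnb1-/- or Lmnb1+/-, and all carried a Cre-dependent red reporter (R26 Ai9, Tomato). Every mouse, control or mutant, received 50 mg per kg methimazole and recovered for 4 weeks, and each sample held about 500000 Tomato-positive cells of 1 mouse. The H3K9me3 libraries were 2 controls and 2 mutants in littermate pairs (pair 1 in methimazole group 3, pair 2 in group 4), and pair 1 also gave 1 H3K4me3 library per genotype from the same crosslinked chromatin. Deletion was mosaic and acted in a lineage, so the sorted cells mixed stem cells, progenitors, neurons and supporting cells, a minority of Tomato-positive mutant cells can retain lamin B1, and even the controls had lost 1 Lmnb1 allele. No markers could be checked in these files, which hold intervals and scores.

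H3K9me3, trimethylation of lysine 9 of histone H3, is the mark of constitutive heterochromatin and is bound by HP1 proteins. It typically lies in broad domains over repeats, pericentromeric sequence and silenced gene clusters, and in olfactory neurons it covers the clusters of odorant receptor genes. H3K4me3 is a narrow mark of active and poised promoters, and lamin B1 is part of the lamina under the nuclear envelope, where much heterochromatin is held.

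The value of an island is its SICER score, the sum over 200 bp windows of how improbable their reads are given the average of that library, so it grows with depth, enrichment and length. Decoded from the scores, a window of 200 bp held on average 1.41 reads in control 1 and 1.43 in mutant 1, the libraries of pair 1, and 2.54 in control 2 and 2.18 in mutant 2, those of pair 2. The lowest island score was 78.8 in control 1, 64.7 in control 2, 81.0 for mutant 1 and 86.1 for mutant 2. Control 2 stood apart, with 5658 islands against 1964 to 2905 in the others, and the main counts and positions that rest on it are also given without it.

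Short regions fell into a large set seen in 1 library and a small set seen in all. Of the 434, 393 (90.6%) were called in 1 library, 16 in 2, 6 in 3 and 19 (4.38%) in all 4. Of the longer regions, 2639 (49.0%) were called in 1 library and 982 (18.2%) in all 4. Almost all of the single-library short regions came from 1 mouse, with 387 called in control 2 only, 3 in mutant 1 only, 3 in mutant 2 only and 0 in control 1 only. Most of the single-library longer regions came from the same mouse, with 2075 of the 2639 called in control 2 only. When regions were rebuilt without control 2, 61 short and 3363 longer ones remained, of which 20 (32.8%) and 1006 (29.9%) were called in all 3 other libraries. In 1 library were then 35 short regions (57.4%) and 1569 longer ones (46.7%), and in 2 libraries 6 (9.84%) and 788 (23.4%).

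**Figure D1:**
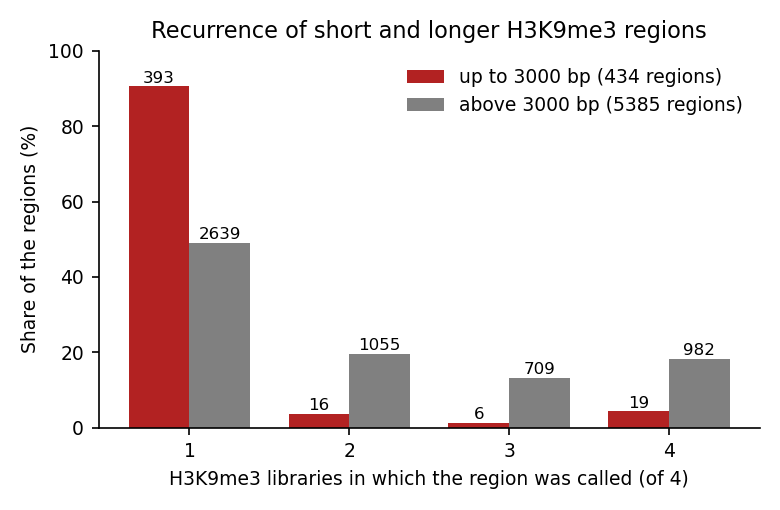
Share of regions (%, y axis) by the number of H3K9me3 libraries they were called in (x axis), for 434 regions of up to 3000 bp and 5385 longer regions; numbers above the bars are regions. Of the short regions 393 were called in 1 library and 19 in all 4, against 2639 and 982 of the longer ones.

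The length limit cut through a continuous distribution. The 16 regions of up to 1000 bp included 5 called in all 4 libraries, the 71 regions from 1200 to 2000 bp included 10, and the 347 regions from 2200 to 3000 bp included 4. Just inside the limit, 96 regions of exactly 3000 bp had a median highest score of 74.7, and 91 of them were called in 1 library. Just outside it, 106 regions of 3200 bp had a median highest score of 78.5, and 101 of them were called in 1 library.

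The short regions seen in control 2 alone had scores near the lower end of that library. These ran from 64.7 to 153.6 with a median of 72.7, and 385 of 387 (99.5%) lay under 2 times the lowest island score of that library. The longer regions seen in control 2 alone were alike in this, with 2004 of 2075 (96.6%). Their median enrichment over the library average was 3.21-fold, or 8.16 reads per window, against 2.19-fold for longer regions seen in control 2 alone and 3.00-fold in that library for the longer regions called in all 4. Enrichment here is the fold that would give the observed score per window under the formula of SICER, and no reads were counted for it. At the same fold over the same windows, 3 of the 387 would have reached the lowest island score of control 1, 2 that of mutant 1 and 28 that of mutant 2. For the rest, a signal of this fold would not have reached the lowest island score of the other libraries. In mutant 2 that score was the highest (86.1), although its 2.18 reads per window were near the 2.54 of control 2. The 28 of mutant 2, the deepest of the other 3, were within reach and were not called, and the cause was not tested.

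Above that limit, the share of short regions of control 2 found again was higher in the libraries of pair 1 than in its mutant littermate. Of the 428 short regions called in control 2, 26 would have reached the lowest island score of control 1, and 23 of these (88.5%) were called there. For mutant 1, 21 of 25 (84.0%) were called, whereas for mutant 2 only 21 of 59 (35.6%) were. The shares are over unlike sets of regions. Those within reach included 28 called in control 2 only for mutant 2, against 3 for control 1 and 2 for mutant 1. The longer regions gave 68.5%, 82.5% and 49.4% in the same 3 libraries. These shares rest on scores that helped to define the regions and have no test.

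The 19 short regions called in all 4 libraries were compact and strong. Their length ranged from 400 to 3000 bp with a median of 1600 bp, and their highest score per covered kb had a median of 538, against 29.4 for the short regions of 1 library and 26.7 for the 982 longer regions called in all 4. Their highest enrichment over the library average had a median of 28.7-fold (range 12.2 to 83.7), against 3.48-fold for those longer regions. Because an island had to reach the lowest score of its library, a short one could be called only at a high score per kb, and the rule itself thus fixed part of this contrast. The plot of score density against length shows the 19 regions above the band of single-library regions at every length.

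**Figure D2:**
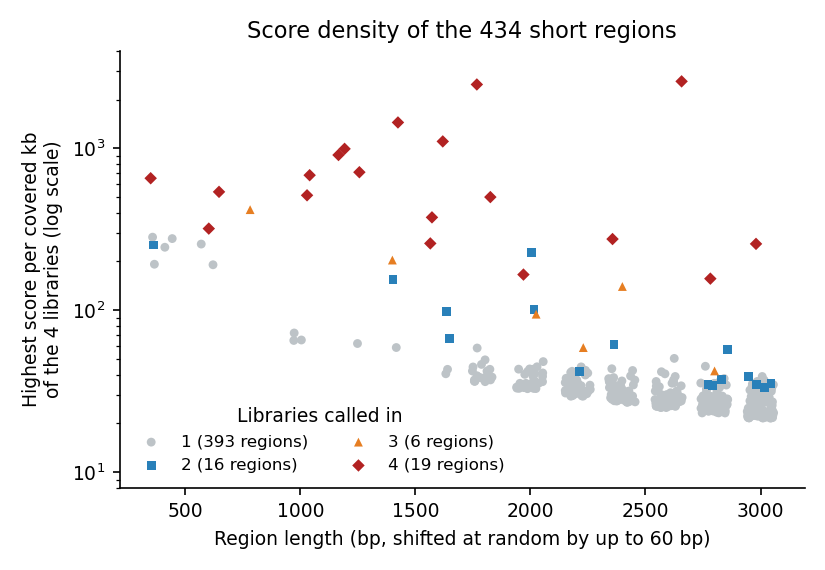
Highest score per covered kb among the 4 libraries (y axis, log scale) against length in bp (x axis) for each of the 434 short regions, marked by the number of libraries they were called in. The 19 regions called in all 4 had a median of 538 and the 393 called in 1 library a median of 29.4.

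The short region with the highest scores lay at chr15:74915801-74917600 (1800 bp). Its score was 2407 for control 1, 2615 for control 2, 3187 for mutant 1 and 4457 for mutant 2. Both mutants were above both controls, the island covered the same 1800 bp in every library, and the enrichment was 41.2-fold to 73.8-fold. The second, at chr9:35111601-35114200 (2600 bp), scored 1669, 1553, 1663 and 2143 in the same order, so that mutant 1 lay between the controls. Its islands covered from 600 to 1800 bp.

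The region at chr6:103598801-103600200 (1400 bp) scored 659 and 570 in controls 1 and 2, and 577 and 1355 in mutants 1 and 2, so that mutant 2 alone stood high. At chr10:21862001-21863000 (1000 bp) the scores were 479, 444, 507 and 512, the narrowest spread among the top 5, with both mutants above both controls. At chr4:70037801-70039400 (1600 bp) they were 480, 392, 441 and 398, and the genotypes overlapped. These 5 had the highest lowest-of-4 scores.

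Ranked by the score in any 1 library, chr12:3109001-3110200 and chr4:3016401-3018800 joined the first 3. The former (1200 bp) scored 339 and 330 in controls, and 363 and 623 in mutants. The latter (2400 bp) scored 303, 605, 431 and 312, highest in control 2. Both lay before 4 Mb, near the centromeric end of their chromosome, as did 3 of the 19 regions in all, against 15 of the 982 longer regions called in all 4 (1.53%).

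For islands of 2 windows the score gives back the whole numbers of reads behind it. At chr19:45724201-45725400 such an island of 400 bp held 120 reads in control 1, 129 in mutant 1 and 150 in mutant 2, or 42.5-fold, 45.0-fold and 34.4-fold the library average. At chr19:61275401-61276000 it held 92 reads in control 2, 83 in mutant 1 and 83 in mutant 2, which was 18.1 to 28.9 times the average of these libraries. In both places more than 80 reads were counted within 400 bp in each of these mice.

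**Figure D3:**
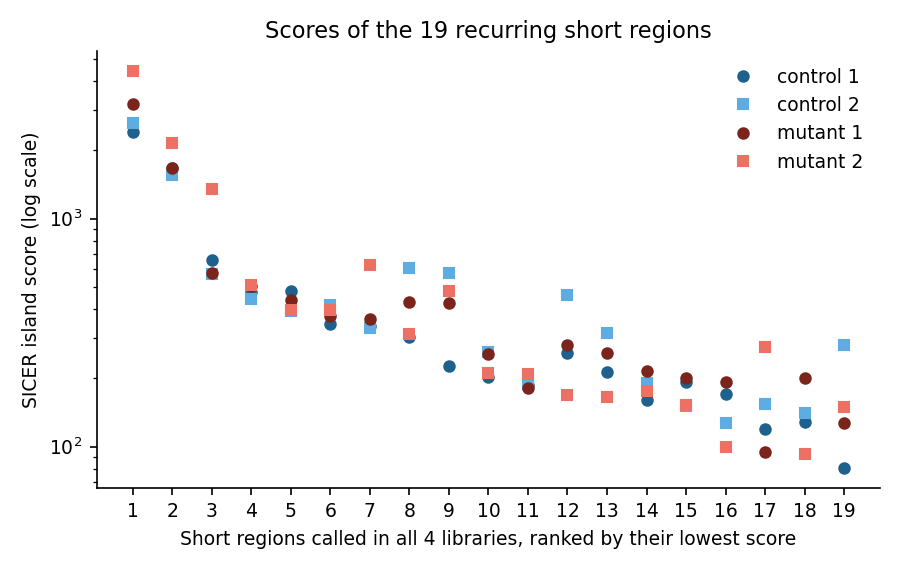
SICER island score (y axis, log scale) in each of the 4 H3K9me3 libraries for the 19 short regions called in all 4, ranked by their lowest score (x axis); blue marks are controls and red marks mutants. The 4 marks of a region lie within 3.46-fold of each other, and the top region runs from 2407 to 4457.

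Across the 19 regions the highest of the 4 scores was 1.15 to 3.46 times the lowest, with a median of 1.89, close to the 1.97 of the longer regions called in all 4. The extent of the islands varied as well. Islands covered the whole region in all 4 libraries in 3 of the 19. The highest score was in control 2 for 7 regions, in mutant 2 for 7, in mutant 1 for 4 and in control 1 for 1.

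Recurring short H3K9me3 regions coincided with H3K4me3 peaks. All 19 overlapped a peak of the control H3K4me3 library by at least 1 bp (100%, 95% exact interval 82.4 to 100) and 18 a peak of the mutant library (94.7%, interval 74.0 to 99.9). At an overlap of 50% of the region, 13 (68.4%) and 10 (52.6%) did, and counting only peaks scoring at least the median of their library, 8 (42.1%) and 9 (47.4%). Among the 393 short regions called in 1 library, 1 and 2 did (0.254% and 0.509%). The longer regions called in all 4 libraries overlapped a peak in 6.72% of cases in the control and 8.55% in the mutant library. H3K4me3 was not used to choose the regions, but there was 1 library per genotype, from the chromatin of pair 1, so the overlaps were not tested, and the intervals cover counting error only.

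**Figure D4:**
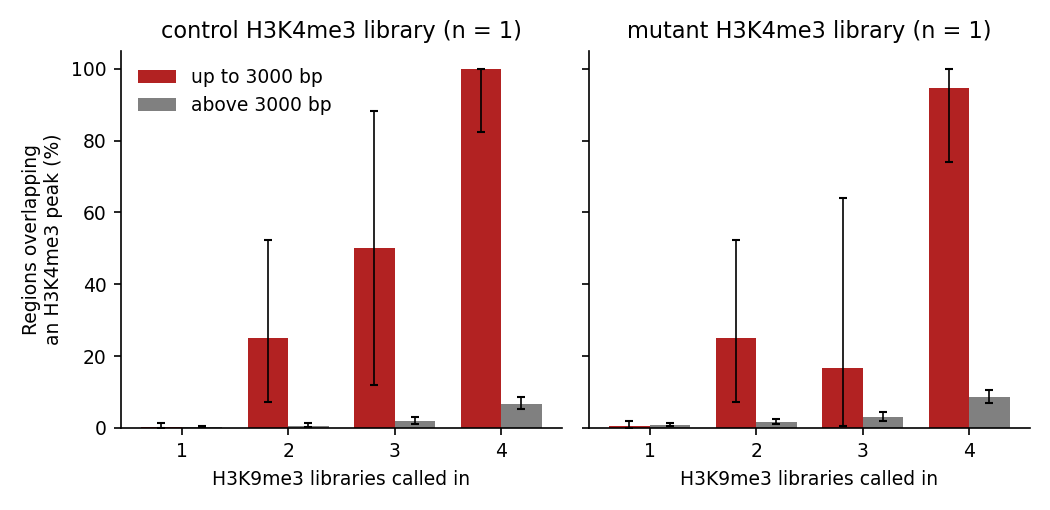
Share of regions overlapping an H3K4me3 peak by at least 1 bp (%, y axis) by the number of H3K9me3 libraries they were called in (x axis), for regions of up to 3000 bp and longer ones, in the control and the mutant H3K4me3 library; bars have 95% exact binomial intervals. Among short regions called in all 4, 100% and 94.7% overlapped a peak, against 6.72% and 8.55% of longer ones.

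The overlap was also measured per bp. H3K4me3 peaks covered 1.09% of the autosomal span in the control and 1.15% in the mutant library. They covered 58.0% and 49.3% of the bp in the 19 regions, and 0.898% and 1.04% of the bp in the longer regions called in all 4. The middle of the region lay inside a peak in 16 of the 19 in the control library and in 13 in the mutant library. The median distance between the middles of region and peak was 168 and 192 bp.

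The H3K4me3 peaks at these 19 regions ranged from weak to among the strongest. Their MACS scores ran from 62.9 to 3100 in the control and from 74.6 to 3100 in the mutant library, with medians at percentiles 42.2 and 49.9 of all autosomal peaks of the library. The peaks at chr15:74915801-74917600 and chr9:35111601-35114200 scored 3100 in both libraries. That at chr6:103598801-103600200 scored 2745 in the control and 2562 in the mutant library. The exception was chr6:29697001-29699000 (2000 bp), which overlapped a peak of score 62.9 in the control library over 14.7% of its length and none in the mutant library. It was chosen after its values were seen. No input library was used here, and the part of signal shared by both antibodies was not tested.

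Over all 434 short regions, 27 (6.22%, 95% exact interval 4.14 to 8.92) overlapped a control peak and 25 (5.76%, interval 3.76 to 8.39) a mutant one, and 24 overlapped both. These shares were diluted by control 2. Rebuilt without that library, 27 of 61 short regions (44.3%) overlapped a control peak and 25 (41.0%) a mutant one. Of the 20 called in all 3 remaining libraries, 20 and 19 did.

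Short regions lay farther from the nearest longer region than longer regions lay from each other. The distance expected for unrelated positions was not computed, so whether short regions avoid the longer ones was not tested. Their median distance to the nearest longer region was 234 kb, whereas the median distance from a longer region to the next longer one was 26.6 kb. Rebuilt without control 2, these medians were 279 and 25.2 kb. Within 10 kb of a longer region were 55 short regions (12.7%), against 1949 longer ones (36.2%), and over 1 Mb away were 62 (14.3%) against 223 (4.14%). The 19 recurring regions did the same, with a median of 233 kb and 3 of 19 within 10 kb, while the longer regions called in all 4 had a median of 6.0 kb and 62.2% within 10 kb. Joining merges a short island that touches a longer one, which removes the nearest pairs from the short class.

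**Figure D5:**
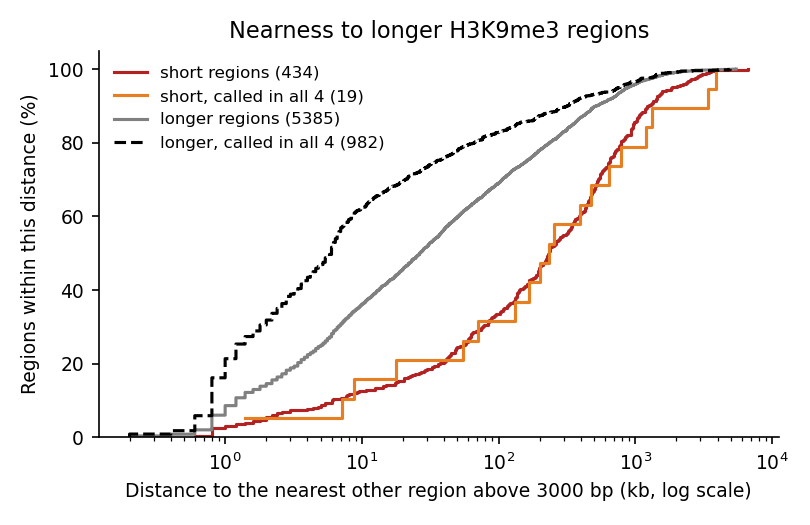
Cumulative share of regions (%, y axis) by the distance in kb (x axis, log scale) to the nearest other region above 3000 bp, for all short regions, the 19 called in all 4 libraries, all longer regions and the 982 longer ones called in all 4. Within 10 kb lay 12.7% of short and 36.2% of longer regions.

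Short regions were few, and the distances between them depend on that number. The median distance from a short region to the nearest other short one was 1754 kb, and 4 of 434 (0.922%) had another within 10 kb. The longer regions were as far from the nearest short one, with a median of 2046 kb and 1.30% within 10 kb. Without control 2 the 61 short regions lay a median of 23463 kb apart. Among the 19, the most isolated of the named regions was chr10:21862001-21863000, at 3868400 bp from the nearest longer region, and the nearest was chr4:3016401-3018800, at 1400 bp.

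Short regions were found on all 19 chromosomes. Measured up to the end of the last island, the density of short regions ran from 0.135 per Mb on chromosome 12 to 0.243 on chromosome 9, a ratio of 1.80. The density of longer regions ran from 1.34 per Mb on chromosome 5 to 3.60 on chromosome 17, a ratio of 2.69. Without control 2, from 0 to 6 short regions lay on a chromosome, at most 0.0492 per Mb, too few to compare densities. Short regions made up 5.13% of the regions on chromosome 2 and 12.7% on chromosome 18. The 19 recurring ones were on 13 of the 19 chromosomes, with 3 on chromosome 6 and 2 each on chromosomes 4, 9, 11 and 19. Chromosome 1 held 37 short regions, all called in control 2 only.

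Whether loss of lamin B1 changed the short regions was asked by comparing 2 control with 2 mutant libraries, for which the smallest p of an exact permutation test is 0.333. Short regions numbered 27 and 428 in controls 1 and 2, and 37 and 27 in mutants 1 and 2. Control 2 was high and the other 3 libraries overlapped. The control mean was 228 ± 284 (SD, n = 2) and the mutant mean 32.0 ± 7.07 (SD, n = 2), so that log2 of mutant over control was -2.83 (two-sided exact permutation test, p = 1.00). Without control 2 the log2 ratio was 0.50, in the opposite direction. With the replicate block, that is within littermate pairs, the mean log2 ratio was -1.77, from 0.45 in pair 1 and -3.99 in pair 2.

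As a share of the regions called, short regions made up 1.51% and 8.30% in controls 1 and 2, and 1.39% and 1.57% in mutants 1 and 2. The mutant mean was 3.42 percentage points lower (two-sided exact permutation test without the block, p = 0.667). The mean difference within pairs is the same by construction, from -0.11 points in pair 1 and -6.72 in pair 2. Without control 2 the mutant mean was 0.23 points higher. When every library was cut to its 1964 top islands, the counts became 26, 30, 22 and 27 in control 1, control 2, and the first and second mutant, and control 2 no longer stood apart.

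The score per covered kb in short regions was 261 and 40.3 in controls 1 and 2, and 220 and 397 in mutants 1 and 2. The control mean was 151 ± 156 (SD, n = 2) and the mutant mean 308 ± 125 (SD, n = 2), with log2 of mutant over control at 1.03 (two-sided exact permutation test, p = 0.667), and 1.53 with the block by littermate pairs. By pair this log2 ratio was -0.25 in pair 1 and 3.30 in pair 2, and without control 2 it was 0.0056. In longer regions the score per covered kb was 20.8, 24.8, 21.8 and 22.0, so that short regions held 12.5, 1.63, 10.1 and 18.02 times as much per kb as longer ones. The genotypes overlapped in this ratio, with a log2 difference of 0.99 (two-sided exact permutation test, p = 0.667), 1.58 with the block and -0.069 without control 2. By pair it was -0.32 in pair 1 and 3.47 in pair 2.

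In 3 alternatives both mutants lay above both controls in these measures, with p = 0.333 for each in the two-sided exact permutation test, the smallest it can give. With the 1964 top islands per library the score per covered kb was 274 and 280 in controls against 474 and 397 in mutants, and the ratio to longer regions 13.0 and 8.73 against 19.7 and 18.02. With islands scoring at least the pooled median the scores were 390 and 163 against 544 and 604, and the ratios 16.3 and 5.26 against 21.9 and 23.7. With a limit of 2000 bp they were 352 and 97.2 against 523 and 527, and 16.8 and 3.89 against 23.84 and 23.77. In these 3 the log2 differences ran from 0.65 to 1.22. With a limit of 5000 bp the genotypes overlapped. The scores were then 79.6 and 25.5 against 43.2 and 69.8, and the ratios 3.87 and 1.01 against 1.99 and 3.22, with log2 differences of 0.10 and 0.096. The genotypes also overlapped in both measures with islands up to 1000 bp apart joined and with all chromosomes.

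Restricting the comparison by recurrence was chosen after seeing the data. With at least 2 libraries required, the score per covered kb was 261 and 198 in controls against 243 and 456 in mutants. The ratio to longer regions was 12.26 and 6.84 against 10.57 and 19.95. The genotypes overlapped in both measures, with log2 differences of 0.605 and 0.676 (two-sided exact permutation test, p = 0.667 for each). The other restriction was to the 19 short and 982 longer regions called in all 4 libraries. The score per covered kb in the 19 was then 388 and 465 in the controls and 616 and 631 in the mutants, and the ratio to longer regions was 15.8 and 12.6 against 21.4 and 24.5. Both mutants were above both controls, with log2 differences of 0.55 and 0.69 (two-sided exact permutation test, p = 0.333 for each, the smallest it can give). Islands covered less of these regions in the mutants, 16.2 kb in mutant 1 and 19.6 kb in mutant 2 against 22.2 and 21.0 kb in the controls. Per kb of region instead of per covered kb, the score in the 19 was 289 and 328 in controls and 335 and 415 in mutants, again higher in both mutants, while the ratio to longer regions was 14.5 and 10.5 in controls and 13.1 and 23.3 in mutants, and the genotypes overlapped. The largest single part of these sums was chr15:74915801-74917600, with 2407 and 2615 in controls and 3187 and 4457 in mutants. Sums without that region were not computed, so the higher score per kb of region in both mutants is not shown to hold without it. Taken singly, 3 of the 19 regions had both mutant scores above both control scores, against a background of 3.8% of the 1001 regions called in all 4. The opposite order held for 0 of the 19, against 8.09%.

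Single regions were compared by limma on log2(score + 64.7) over the 2801 regions of all chromosomes called in at least 2 libraries, 41 of them short. At an adjusted p under 0.05, 0 of the 41 short regions passed (smallest adjusted p 0.814), against a background of 0.0357% of all regions, which is 1 region that is not a short one. At an unadjusted p under 0.05 there were 3 of 41, against 5.82% of all regions. Only these 41 of the 434 short regions passed the filter on recurrence, and the other 393 were not tested. With the replicate block the counts for short regions were again 0 and 3.

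The median log2 difference, mutant against control, was 0.21 over the 41 short regions and 0.08 over all 2801. Higher in mutants were 30 of the 41, against 1569 of the 2746 longer regions. Without scaling the libraries to a common median the 2 medians were 0.02 and -0.11, and 22 short and 948 longer regions were higher. The direction turned when a control was left out, with a short median of -0.066 (20 of 43 higher) without control 1 and -0.023 (12 of 26) without control 2, and with all 434 regions in the fit it was -0.35 (36 higher). The medians over all regions were -0.17, -0.12 and -0.33 in these 3 fits. Of the longer regions, 768 of 2550, 690 of 1794 and 2041 of 5385 were higher in mutants. Fold changes on this scale understate the change of low scores. For the 19 regions called in all 4 libraries the median was 0.23 (range -0.36 to 0.76), against -0.0049 for the longer regions called in all 4.

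The short regions with the smallest p were lower in mutants and did not pass. At chr5:137632601-137634600 (2000 bp) the scores were 121 in control 1, 164 in control 2 and 0 in both mutants. The log2 difference was -1.48 ± 0.45 (SE; limma, adjusted p = 0.814). At chr11:121828601-121831000 (2400 bp) they were 90.2, 135, 0 and 0. At chr9:56108001-56108800 (800 bp) they were 171, 251, 87.3 and 0, and this region overlapped an H3K4me3 peak in the control but not in the mutant library.

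In the other direction, chr7:12595001-12597400 (2400 bp) scored 0 and 123 in controls 1 and 2, and 96.2 and 112 in mutants 1 and 2. Its log2 difference was 0.80 ± 0.52 (SE; limma, adjusted p = 0.975). The next smallest p values belonged to chr15:74915801-74917600, with 0.76 ± 0.51 (SE; limma, adjusted p = 0.999), and chr12:3109001-3110200, with 0.63 ± 0.55 (SE; limma, adjusted p = 0.999). In both, the 2 mutant scores were above the 2 control scores. This held for 3 of the 19 recurring regions, the other being chr10:21862001-21863000, against a background of 3.8% of the 1001 regions called in all 4. The opposite order held for 0 of the 19, against a background of 8.09%.

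Within pairs, the recurring short regions and the longer ones had these directions. In pair 1 the mutant scored higher than its control littermate in 14 of the 19, and in 847 of the 982 longer regions called in all 4 (86.3%). In pair 2 it did so in 9 of the 19, and in 75 of the 982 (7.64%). The difference between short and longer regions was not tested.

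The patterns that separate the genotypes need at least 2 libraries, which 41 short regions had. An island in both controls and neither mutant was found in 3 short regions (0.691%) and 184 longer ones (3.42%), a background of 3.21% of all autosomal regions. Among regions called in at least 2 libraries these were 7.32% and 6.70%. The 3 were chr5:137632601-137634600, chr11:121828601-121831000 and chr12:42967201-42970000, the last with scores of 92.1 in control 1 and 91.2 in control 2. An island in both mutants and neither control was found in 0 short and 32 longer regions, a background of 0.55%. A score of 0 means that no island was called, not that no reads were present.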

How the data were processed

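H3K9me3 was measured by FARP-ChIP-seq, chromatin immunoprecipitation suited to few cells, in 2 control and 2 mutant samples, and H3K4me3 in 1 of each. The authors mapped reads to mm9 with bowtie (unique alignments, at most 2 mismatches) and deposited, for each library separately, SICER island scores for H3K9me3 (windows of 200 bp, gaps of 600 bp, E-value 0.01) and MACS peak scores for H3K4me3 (p-value 1e-05). Neither score was scaled between libraries. The authors' own counts in merged peaks were not used here.

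The regions and the lists were chosen with earlier results of these data known. Computed here were the joined regions, overlaps by at least 1 bp, distances between edges, and reads per window and enrichment from the scores: the average at which the scores of 2-window islands under 700 give whole reads (within 0.0001) fitted 5 of 5, 10 of 10, 11 of 11 and 10 of 10 islands in control 1, control 2, mutant 1 and mutant 2. Genotypes were compared as log2 ratios or differences of means with an exact permutation test (two-sided), and over regions called in at least 2 libraries with limma 3.58.1 (functions lmFit and eBayes without trend) in R 4.3.3 on log2(score + 64.7), the pseudocount being the smallest island score, after the libraries were brought to the same median in regions called by all 4. Benjamini-Hochberg adjusted p under 0.05 was the threshold. Each library is 1 mouse. Same-numbered libraries are littermates matched for age, sex and treatment, as the study's methods and the shared methimazole group in the labels state, and were a block in an alternative. Intervals are 95% exact binomial. The limma and interval steps were checked on simulated data. Other steps ran in Python 3.11.15 (scipy 1.17.1, pandas 2.3.3, numpy 2.4.6, matplotlib 3.10.9).

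Regions named are the 5 short regions whose lowest score over the 4 libraries was highest, the 5 with the highest score in 1 library, the 3 of lowest limma p in each direction, up to 3 called in both libraries of 1 genotype only, and the 3 highest with H3K4me3 peaks in both libraries. The 2-window examples were chosen after their values were seen. The reference at hand is of another build (GRCm38), so no sequence or gene was taken from it. Alternatives were stricter and equal numbers of islands, other length limits, joining distances, pseudocounts, filters, scaling, overlaps, all chromosomes, the block and each library left out.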

Additional observations from a re-analysis of the deposited data

How the results depend on the processing

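No genotype difference of short regions could pass the permutation test, so its p values say nothing of stability. Leaving out each library in turn moved the log2 ratio of the number of short regions from -3.61 to 0.50, their percent of regions called from -6.88 to 0.23 points, the log2 ratio of their score per kb from 0.0056 to 2.74 and of their score relative to longer regions from -0.069 to 2.92. The changes of direction all came from leaving out control 2, whose cause was not tested. With the replicate block, which pairs littermates, the 4 values were -1.77, -3.42, 1.53 and 1.58, in the same directions. These means rested on pair 2, which holds control 2. In pair 1 the values were 0.45, -0.11, -0.25 and -0.32, and in pair 2 they were -3.99, -6.72, 3.30 and 3.47. In limma, 0 short regions passed in every alternative run (block, each library left out, filters, scaling, limits of 2000 and 5000 bp, stricter islands, a pseudocount 10 times larger) except a pseudocount of 1, with 3, the regions called in both controls and neither mutant. With that pseudocount 199 of all 2801 regions passed. The share of short regions overlapping an H3K4me3 peak, 6.22% in the control and 5.76% in the mutant library, became 1.84% and 2.07% with peaks scoring at least the median of their library, 2.46% and 2.82% with a limit of 5000 bp, and 44.3% and 41.0% without control 2, which was added after seeing the data. At an overlap of 50% of the region it was 3.23% in the mutant library. These shares change by construction with the peaks and regions counted. At the same fold, few of the short regions called in control 2 alone would have reached the lowest island score of the other libraries. Some regions of control 2 computed not to reach it were called there all the same. The lowest island score was 86.1 in mutant 2, against 64.7 in control 2.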

Other observations

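The following classes were chosen after the values were seen. Among regions called in all 4 H3K9me3 libraries, those whose highest enrichment was above 12-fold were the 19 short regions and 14 longer ones, the latter with a median length of 5.6 kb. All 14 longer ones overlapped an H3K4me3 peak in the control library and all 14 in the mutant library. Of the 226 longer regions between 4-fold and 12-fold, 34 and 35 did, and of the 742 of up to 4-fold 18 and 35. By length, 9 of the 22 longer regions of up to 5 kb overlapped a peak in each library (40.9%), against 5.36% in each library for the 261 from above 5 to 10 kb. Enrichment and overlap with H3K4me3 peaks thus went together in longer regions as well, as a description without a test.

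Besides the recurring regions, 9 short regions overlapped an H3K4me3 peak in at least 1 library. The region at chr16:10975001-10975400 (400 bp) was called in control 2 (score 101.0) and mutant 1 (98.5) and overlapped a peak in both. The region at chr15:59973201-59973600 (400 bp), called in mutant 1 only (score 113), overlapped a peak of the mutant library and none of the control library.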
